A study of Mus musculus with 22 samples.

Results

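The genes described here were 10 markers of mast cells and basophils, measured in an array study of dendritic cells (DCs) from mouse pancreas. They were the chymases Cma1 and Mcpt4, carboxypeptidase Cpa3, tryptase Tpsb2, the basophil protease Mcpt8, the IgE receptor subunits Fcer1a and Ms4a2, histidine decarboxylase Hdc, the transcription factor Gata2 and the receptor Kit. Every probe set annotated to 1 of these genes alone was taken, which gave 15 probe sets for the 10 genes, out of 45037 probe sets and 18193 genes with a probe set of their own. Where a gene had several probe sets, the one with the highest mean over the 22 arrays stood for it. The others are given beside it in part of the comparisons.

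RNA came from CD11c+CD8α- DCs of female mice aged 5 weeks, and each sample pooled 10 pancreases. The strains were NOD, in which autoimmune diabetes arises spontaneously, and C57BL/6, which does not develop the disease. Cells were lysed directly after sorting (steady state, 4 C57BL/6 and 3 NOD arrays), or after 18 h in culture with PBS (4 and 4 arrays) or with LPS, a bacterial cell wall product (3 C57BL/6 and 4 NOD arrays). All groups went through tissue digestion, magnetic enrichment of CD45+ cells and the same sort, and the sort used CD11c and CD8α but no marker of mast cells or basophils. The expression values are log2 brightness after RMA, so a difference of 1 is a doubling, and levels of different probe sets cannot be set against each other.

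Mast cells are tissue granulocytes that depend on KIT and its ligand for survival. Their granules hold chymases, tryptases and carboxypeptidase bound to heparin together with histamine, which histidine decarboxylase makes, and they release these when antigen cross-links IgE on the high-affinity receptor. Basophils are blood granulocytes that share the IgE receptor, histamine and GATA2, express MCPT8 in the mouse, and carry little KIT. Several of these genes are also used by other cells: Kit by progenitors and innate lymphoid cells, Hdc by other myeloid cells, and Gata2 by progenitors and endothelium.

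Markers of the labelled cell type were detected, and some macrophage genes were at similar array values. Cd74 and H2-Ab1, which serve antigen presentation on MHC class II, had mean levels of 14.61 and 14.37 in C57BL/6 and of 14.51 and 14.25 in NOD at steady state, near the top of the scale, and Itgax, which encodes CD11c, had 11.32 and 10.89. Other genes of the DC list were dimmer, such as the chemokine receptor gene Xcr1 (8.41 and 8.42). Of the macrophage list, whose mean was 12.68 to 13.07 per array, the complement gene C1qc had 14.20 and 14.22 and the mannose receptor gene Mrc1 14.00 and 14.09. Transcripts of acinar enzymes were high at steady state as well, with a mean over 10 enzyme genes of 12.66 to 13.73 per array. In PBS culture that mean ranged from 8.39 to 12.33, and Itgax had levels of 9.03 in C57BL/6 and 8.93 in NOD. In such bulk samples, fewer cells of a type and less RNA per cell cannot be told apart.

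The proteases of mast cell granules were the markers that separated the strains directly after sorting, so the promoters of the 3 that did are shown with that of Hdc, the marker that changed most in culture. Each line holds the 250 bases before the transcript start in RefSeq (GRCm38.p6), read 5′ to 3′ on the gene's strand, which is the minus strand in all 4 genes. Capitals mark GATAA, the core bound by GATA factors, on either strand (TTATC when it lies on the other strand), and TATAAA, the TATA box, on the gene's strand, and the motifs do not overlap in these windows. Cma1 is at chr14:55944676-55944925, Mcpt4 at chr14:56062311-56062560, Cpa3 at chr3:20242182-20242431 and Hdc at chr2:126618679-126618928, which lies inside the span of the annotated Hdc gene.
Cma1: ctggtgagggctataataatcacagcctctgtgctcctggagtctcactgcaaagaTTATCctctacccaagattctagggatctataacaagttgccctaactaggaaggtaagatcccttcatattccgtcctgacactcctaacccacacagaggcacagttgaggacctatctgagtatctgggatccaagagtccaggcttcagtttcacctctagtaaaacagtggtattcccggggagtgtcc
Mcpt4: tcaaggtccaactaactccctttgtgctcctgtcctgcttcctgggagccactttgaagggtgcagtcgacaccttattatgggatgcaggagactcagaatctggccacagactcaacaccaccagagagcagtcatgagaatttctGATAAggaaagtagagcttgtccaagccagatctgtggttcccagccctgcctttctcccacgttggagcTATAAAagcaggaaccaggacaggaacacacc
Cpa3: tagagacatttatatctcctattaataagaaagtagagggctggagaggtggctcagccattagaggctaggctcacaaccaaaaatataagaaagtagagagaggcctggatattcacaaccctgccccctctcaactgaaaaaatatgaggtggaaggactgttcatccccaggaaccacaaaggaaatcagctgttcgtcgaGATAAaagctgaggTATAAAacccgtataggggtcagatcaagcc
Hdc: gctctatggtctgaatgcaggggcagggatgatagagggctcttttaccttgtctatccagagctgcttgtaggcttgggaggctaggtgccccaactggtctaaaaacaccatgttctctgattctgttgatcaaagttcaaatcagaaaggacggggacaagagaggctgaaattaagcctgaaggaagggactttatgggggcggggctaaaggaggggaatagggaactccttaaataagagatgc
GATAA lay at -194 to -190 from the start on the other strand in Cma1, at -102 to -98 in Mcpt4 and at -45 to -41 in Cpa3. TATAAA followed at -32 to -27 in Mcpt4 and at -31 to -26 in Cpa3. TATAAA was not found in the window of Cma1, and neither motif in that of Hdc. Of the 9 members with a promoter in the table, 5 held GATAA, against 22.6% of 32851 mouse promoters of the same length, and 3 held TATAAA, against 7.59%. The other matches were GATAA and TATAAA in Fcer1a and GATAA in Ms4a2. These letter matches are descriptions of sequence and not binding sites.

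The granule protease genes lie in different places of the genome. Cma1 (chr14:55941451-55944675), Mcpt4 (chr14:56059744-56062310) and Mcpt8 (chr14:56082163-56085499) lie near each other in the chymase cluster of chromosome 14, whereas Cpa3 (chr3:20215616-20242209) and Tpsb2 (chr17:25366308-25368096) lie on chromosomes 3 and 17.

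**Figure D1:**
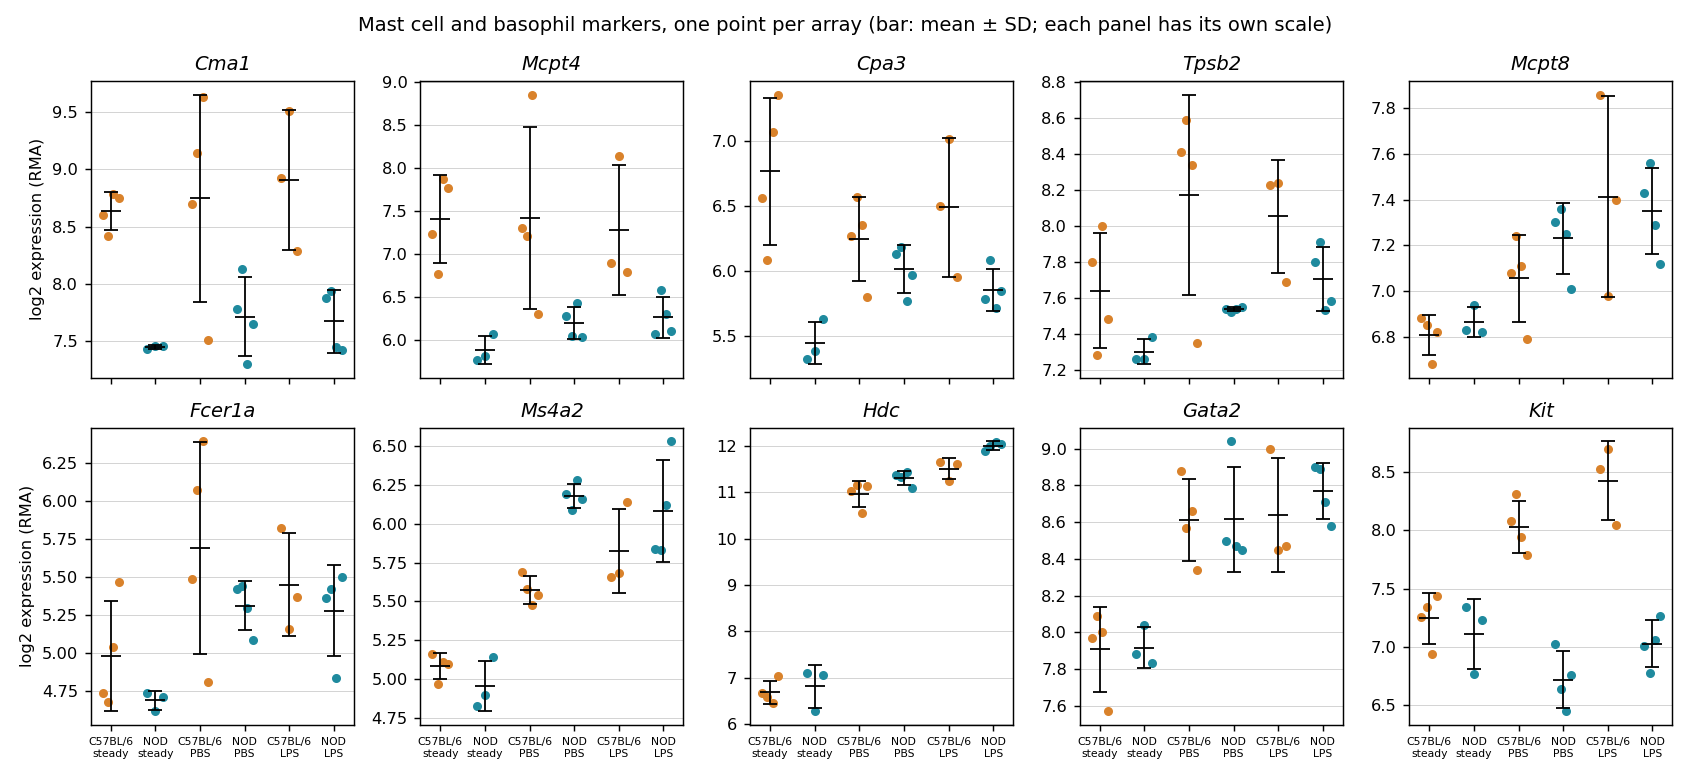
Log2 expression (RMA, vertical axis, a separate scale in each panel) of the 10 markers in the 6 groups, with 1 point per array, C57BL/6 in orange and NOD in blue, and bars for the mean ± SD. Cma1 and Mcpt4 lay lower in NOD at steady state and in LPS culture, Kit lay lower in NOD in both cultures, and Hdc stood between 6.28 and 7.11 at steady state and between 10.56 and 12.09 in culture.

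At steady state, 3 proteases of mast cell granules were lower in NOD than in C57BL/6 DC samples, and the other 7 markers did not pass the test. The chymase gene Cma1 had values of 8.60, 8.42, 8.78 and 8.75 in the 4 C57BL/6 arrays and of 7.43, 7.46 and 7.46 in the 3 NOD arrays. Mcpt4, which encodes the chymase of connective tissue mast cells, had 7.24, 6.77, 7.88 and 7.77 in C57BL/6 and 5.77, 5.82 and 6.08 in NOD. Cpa3, the carboxypeptidase stored with the chymases, had 6.56, 6.08, 7.07 and 7.36 in C57BL/6 and 5.32, 5.38 and 5.63 in NOD. For each of the 3 genes every NOD array lay below every C57BL/6 array, and replicate 4 was the lowest C57BL/6 array. The difference (NOD minus C57BL/6) was -1.18 ± 0.11 (SE) for Cma1 (limma adjusted p = 4.85e-05), -1.52 ± 0.23 for Mcpt4 (adjusted p = 0.00178) and -1.33 ± 0.25 for Cpa3 (adjusted p = 0.00645), which are folds of 2.27, 2.87 and 2.51. In NOD, Mcpt4 and Cpa3 were below the lower quartile of their own array (6.08 to 6.19) on all 3 arrays.

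Among the 10 markers, 3 were called lower and 0 higher, and the same 3 did not overlap between the strains. Over the 18193 genes, 8.35% were called lower at the same threshold (an adjusted p under 0.1), 15.2% in all, and 11.6% had NOD values that all lay below the C57BL/6 values. The median difference of the 10 markers was -0.21, and that of all genes was 0.03.

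Tryptase Tpsb2 had a mean of 7.64 ± 0.32 (SD, n = 4) with a lowest value of 7.28 in C57BL/6 at steady state and 7.26, 7.26 and 7.38 in NOD, so the groups overlapped (difference -0.34 ± 0.16, adjusted p = 0.216). Its other probe set differed by 0.02 ± 0.12. Kit (-0.13 ± 0.16), Hdc (0.13 ± 0.20), Gata2 (0.01 ± 0.13) and Mcpt8 (0.05 ± 0.09) had differences smaller than their standard errors or close to them. Fcer1a, the IgE-binding chain of the receptor, had 4.68 to 5.47 in C57BL/6 and 4.62 to 4.74 in NOD, and Ms4a2, its β chain, had 4.97 to 5.16 and 4.83 to 5.14. Both receptor genes were below the lower quartile of every steady-state array. The dimmer Ms4a2 probe set differed by 0.21 ± 0.10 and did not pass (adjusted p = 0.231).

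The list of 26 other mast cell and basophil genes, of which 22 were measured, held few calls. At steady state 2 were lower in NOD, Rab27b, a GTPase of granule secretion (-0.61, adjusted p = 0.0108), and the cytokine gene Il4 (-0.37, adjusted p = 0.0507). The other 20 did not pass, and the list's median was 0.00. Cd200r3 was among those 20, with means of 4.82 in C57BL/6 and 4.68 in NOD. Its probe set here was below the lower quartile of every steady-state array. The study reported Cd200r3 as lower in NOD, also by PCR and, for the protein, by flow cytometry. In its array comparison of steady-state cells the fall of Cd200r3 was among the largest that it listed. The values of the probe set used here do not show such a fall, and the reason was not tested. Of 14 genes of IgE receptor signalling, 2 were lower, the phospholipase gene Plcg2 (-0.41) and the adaptor gene Gab2 (-0.34), with a list median of -0.11. Of 13 transcription factors, 2 were higher, Lyl1 (0.49) and Cebpa (0.49). Of 5 growth factors and cytokines that act on mast cells, 3 were lower: Kitl, the ligand of KIT (-0.70, adjusted p = 0.00265), Il33 (-0.80, adjusted p = 0.0265) and Tslp (-0.70, adjusted p = 0.0222).

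Markers of other cell types also differed between the strains at steady state. A list of 13 natural killer and innate lymphoid cell genes held 9 that were lower in NOD and none that was higher, with a list median of -1.31, and the mean of the list was 8.85 to 9.14 in the C57BL/6 arrays and 7.94 to 8.16 in the NOD arrays. Of 7 eosinophil genes 3 were lower and 2 higher, and Siglecf, a surface receptor of eosinophils, had a difference of -1.05 (adjusted p = 0.00182). The means of 14 DC genes (11.27 to 11.32 against 11.05 to 11.09, 5 called lower in NOD) and of 10 neutrophil genes (8.36 to 8.58 against 8.05 to 8.27, 4 lower and 2 higher) separated the strains as well. Of 11 macrophage genes 1 was lower, and none of 10 acinar genes passed the test. What part such differences in cell content had in the protease values was not tested.

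**Figure D2:**
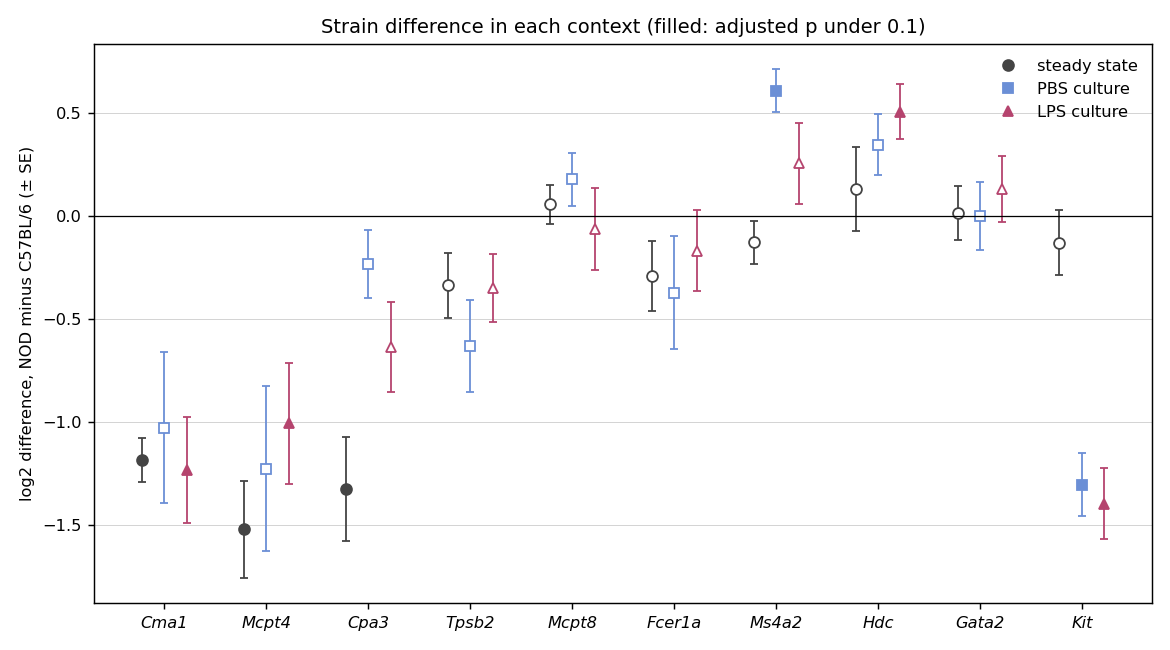
Log2 difference between the strains (NOD minus C57BL/6, vertical axis, bars ± SE) of the 10 markers at steady state (circles), in PBS culture (squares) and in LPS culture (triangles), with filled symbols where the adjusted p was under 0.1. Cma1 and Mcpt4 lay between -1.52 and -1.01 in all 3 contexts, Cpa3 went from -1.33 at steady state to -0.24 in PBS, and Kit from -0.13 at steady state to -1.31 in PBS.

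In PBS culture the strains differed in Kit, the receptor for stem cell factor. Its values were 8.08, 8.31, 7.94 and 7.79 in C57BL/6 and 7.03, 6.64, 6.45 and 6.76 in NOD, so every NOD array lay below every C57BL/6 array. The difference was -1.31 ± 0.15 (adjusted p = 0.00033). For the dimmer Kit probe set it was -1.06 ± 0.13 (adjusted p = 0.00059). The 1 marker called higher in NOD was Ms4a2, with 5.69, 5.58, 5.48 and 5.54 in C57BL/6 and 6.19, 6.09, 6.28 and 6.16 in NOD (0.61 ± 0.10, adjusted p = 0.00445). All of these Ms4a2 values were below their array's lower quartile, and the dimmer Ms4a2 probe set, with a difference of -0.12 ± 0.16, did not pass.

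Of the 10 markers 1 was called higher and 1 lower in PBS culture, and these were also the ones that did not overlap. Over all genes 5.43% were called higher and 5.28% lower, 10.7% in all, and 7.69% and 6.69% lay wholly above or below. The median difference of the markers was -0.30 and that of all genes was 0.04.

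The mast cell chymases differed in PBS culture by about as much as at steady state, with a wider spread. Cma1 had 8.70, 9.14, 9.63 and 7.51 in C57BL/6 and 7.78, 8.13, 7.30 and 7.65 in NOD (-1.03 ± 0.36, adjusted p = 0.14). Mcpt4 had 7.31, 7.22, 8.86 and 6.31 in C57BL/6 and 6.28, 6.05, 6.43 and 6.04 in NOD (-1.23 ± 0.40, adjusted p = 0.105). Tpsb2 had 8.41, 8.59, 8.34 and 7.35 in C57BL/6 and 7.54, 7.52, 7.54 and 7.55 in NOD (-0.63 ± 0.22, adjusted p = 0.136). In all 3 genes replicate 4 was the lowest C57BL/6 array and lay within the NOD range (Cma1, Mcpt4) or below it (Tpsb2), while the other 3 C57BL/6 arrays lay above the NOD arrays in each of them. Since replicate 4 was the lowest, leaving it out could only widen the differences. Without it they were -1.44 for Cma1 (adjusted p = 0.00616), -1.60 for Mcpt4 (adjusted p = 0.0223) and -0.91 for Tpsb2 (adjusted p = 0.00121). In that refit 6 markers were called in place of 2, with 9.05% of all genes called. With C57BL/6 replicate 3 left out instead, the highest for Cma1 and Mcpt4, 3 markers were called (9.16% of all genes). Every other single omission gave 2. Blocking on replicate number gave adjusted p-values of 0.0936 for Cma1, 0.0365 for Mcpt4 and 0.0898 for Tpsb2, and 5 markers were called, against 15.7% of all genes. The dimmer Tpsb2 probe set differed by 0.08 ± 0.14 and did not pass (adjusted p = 0.82, and 0.708 with the block). Cpa3 had 6.27, 6.57, 6.35 and 5.80 in C57BL/6 and 6.13, 6.18, 5.77 and 5.97 in NOD, which overlapped (-0.24 ± 0.17, adjusted p = 0.508).

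In LPS culture 3 markers were lower and 1 higher in NOD. Kit had 8.53, 8.70 and 8.05 in the 3 C57BL/6 arrays and 7.01, 6.78, 7.06 and 7.27 in the 4 NOD arrays (-1.40 ± 0.17, adjusted p = 0.0011), and its other probe set differed by -1.39 ± 0.14. Cma1 had 8.92, 9.51 and 8.29 in C57BL/6 and 7.88, 7.94, 7.45 and 7.42 in NOD (-1.23 ± 0.26, adjusted p = 0.0181). Mcpt4 had 6.90, 8.15 and 6.79 in C57BL/6 and 6.07, 6.59, 6.31 and 6.11 in NOD (-1.01 ± 0.29, adjusted p = 0.0734). In each of the 3 genes the strains did not overlap. The Mcpt4 call was lost when replicate number was a block (adjusted p = 0.116), and without C57BL/6 replicate 3, its highest array, where the difference was -0.57 (adjusted p = 0.109), and without NOD replicate 1, 3 or 4 (adjusted p up to 0.152). Hdc had 11.65, 11.25 and 11.62 in C57BL/6 and 11.88, 12.00, 12.09 and 12.05 in NOD, again without overlap (0.50 ± 0.13, adjusted p = 0.0511). That call was lost without C57BL/6 replicate 3 (0.38, adjusted p = 0.183) or without NOD replicate 2, 3 or 4 (adjusted p up to 0.121).

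Over all genes 5.43% were called lower and 5.21% higher in LPS culture, 10.6% in all, and 9.32% and 9.79% lay wholly below or above. Cpa3 differed by -0.64 ± 0.22 and Tpsb2 by -0.35 ± 0.16, and neither passed. The dimmer Tpsb2 probe set differed by 0.04 ± 0.18. The median difference of the markers was -0.26 against 0.01 for all genes.

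Natural killer and innate lymphoid cells, some of which use Kit, also had genes lower in NOD in culture: 6 of the 13 in PBS and 6 in LPS, with none higher. The mean of the list was 9.73 to 10.10 in C57BL/6 and 8.84 to 9.31 in NOD in PBS, and 9.57 to 10.03 and 8.61 to 9.14 in LPS, so this list and Kit separated the same groups of arrays in culture. At steady state the list separated the strains while Kit did not. The part of these cells in the Kit difference was not tested. Among the 22 other mast cell and basophil genes the calls in culture went the other way, with Hpgds, a prostaglandin D2 synthase (0.94 in PBS, 1.33 in LPS), and the cytokine gene Osm (0.72 and 1.07) higher in NOD in both, and Itga2, an integrin subunit, higher in LPS culture (1.25). None was lower. Kitl was lower in NOD in PBS culture (-0.74, adjusted p = 0.0149).

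**Figure D3:**
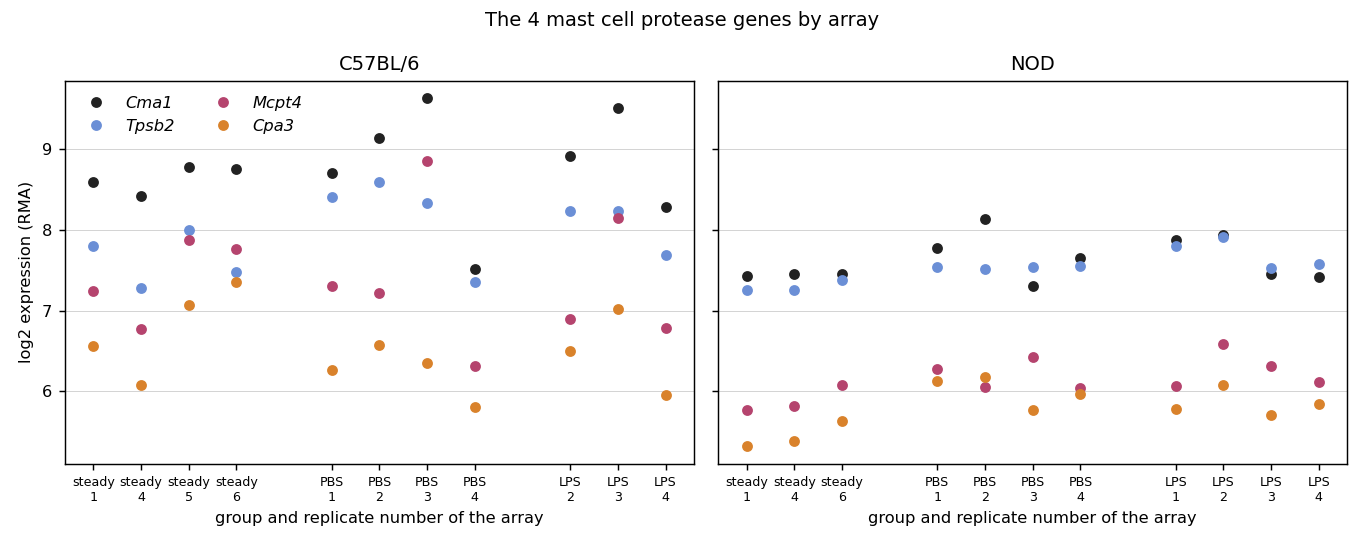
Log2 expression (RMA, vertical axis) of Cma1, Tpsb2, Mcpt4 and Cpa3 in each array, ordered by group and by the replicate number of the labels (horizontal axis), in C57BL/6 and NOD. In C57BL/6 cultures all 4 genes were lowest in replicate 4, and Cma1 and Mcpt4 were highest in replicate 3 of both cultures.

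The C57BL/6 arrays differed among themselves, and several granule proteases were high or low in the same ones. In PBS culture Cma1 and Mcpt4 were highest in replicate 3 (9.63 and 8.86) and lowest in replicate 4 (7.51 and 6.31). In LPS culture they were again highest in replicate 3 (9.51 and 8.15) and lowest in replicate 4 (8.29 and 6.79). Cpa3 and Tpsb2 had their lowest value in replicate 4 of both cultures. The SD of Cma1 was 0.91 in the C57BL/6 PBS group and 0.35 in the NOD PBS group, and 0.16 and 0.02 at steady state. The mean of the acinar genes had another order in C57BL/6 PBS culture, with 11.92, 8.39, 10.76 and 11.54 in replicates 1 to 4. The neutrophil list had 8.59, 8.88, 9.28 and 8.51 in these arrays, so it was highest and lowest in the same arrays as Cma1. What part differences in cell content between arrays had in this was not tested.

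Over the 22 arrays the gene most like Cpa3 outside the markers was Atp2c1, a Golgi calcium pump (Pearson r = 0.861, and 0.697 for deviations from the group means), followed by Lbp, Dmac2, Rpap2 and Eps8l1 (r = 0.802 to 0.821). Among the markers Cpa3 had r = 0.797 with Cma1, 0.796 with Mcpt4 and 0.55 with Tpsb2, and 0.688, 0.647 and 0.632 for the deviations. Mcpt8, the basophil protease, was not of this pattern, with r of 0.044, -0.148 and -0.0946 with Cma1, Mcpt4 and Cpa3. The genes most like Mcpt8 were Clip4 (r = 0.911) and Evx2, Rnf138rt1, Pax9 and Trpm1 (r = 0.901 to 0.905), of which Evx2 and Pax9 are patterning genes of the embryo. These values describe the 22 arrays, which share groups and pools.

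Culture for 18 h raised Hdc, the enzyme that makes histamine, more than any other marker. In C57BL/6 its values were 6.67, 6.59, 6.46 and 7.03 at steady state and 11.03, 11.16, 10.56 and 11.13 after PBS culture. In NOD they were 7.11, 6.28 and 7.06 at steady state and 11.37, 11.34, 11.44 and 11.10 after culture. All cultured arrays stood far above all steady-state arrays, with differences (culture minus steady state) of 4.28 ± 0.16 in C57BL/6 (adjusted p = 1.31e-09) and 4.50 ± 0.19 in NOD (adjusted p = 5.25e-09), which are folds of 19.4 and 22.6. The other Hdc probe set differed by 3.76 and 3.99. The neutrophil list, whose cells can also express Hdc, had an array mean of 8.36 to 8.58 at steady state and 8.51 to 9.28 in PBS culture in C57BL/6, and of 8.05 to 8.27 and 7.90 to 8.51 in NOD. Of its 10 genes 6 rose and 1 fell in C57BL/6 (44.6% and 32.3% of all genes). In NOD 5 rose and 3 fell (41.6% and 30.0%). The part of neutrophils in the Hdc rise was not tested.

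**Figure D4:**
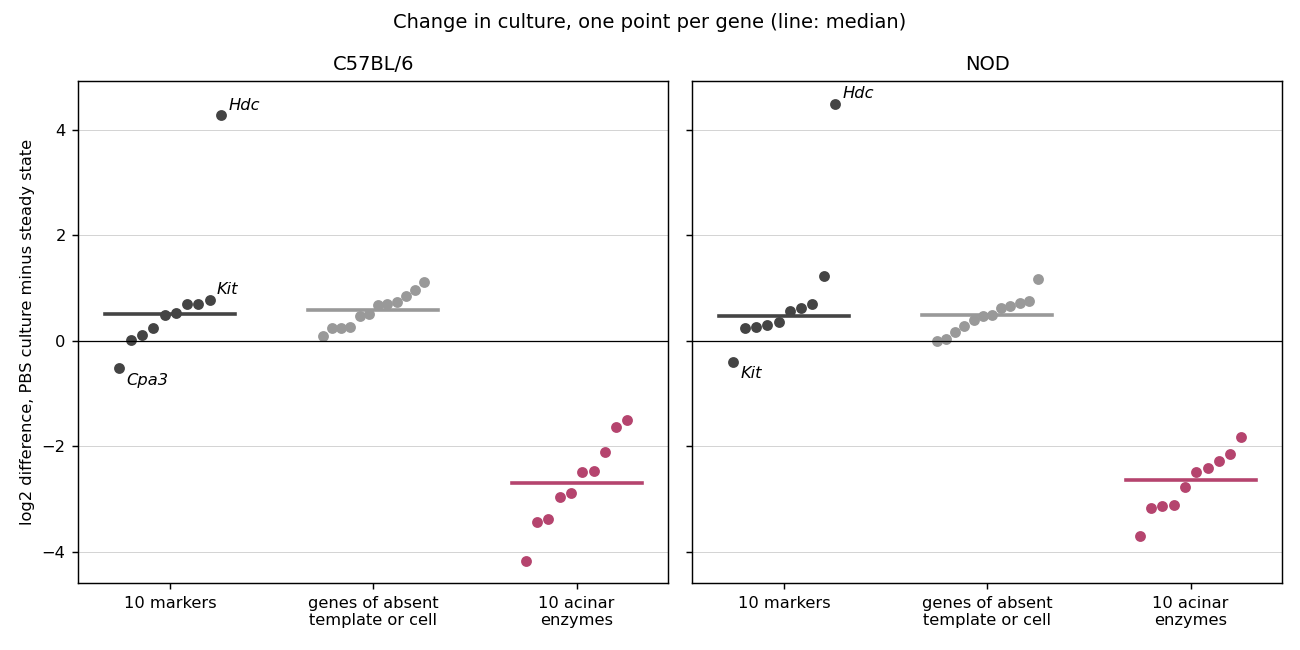
Log2 difference between PBS culture and steady state (vertical axis) in C57BL/6 and NOD, with 1 point per gene and a line at each median, for the 10 markers, for 12 genes that have no template in female mice or belong to retina, egg or sperm, and for 10 acinar enzyme genes. Hdc stood apart at 4.28 and 4.50, the medians of the markers (0.51 and 0.47) were close to those of the 12 genes (0.60 and 0.49), and all acinar genes fell.

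The 10 markers did not fall in culture as a group. In C57BL/6 7 markers were called higher and 1 lower, and over all genes 44.6% were higher and 32.3% lower, 76.9% in all. In NOD 8 were higher and 1 lower, with 41.6% and 30.0% over all genes and 71.6% in all. The markers that lay wholly above their steady-state values numbered 4 in C57BL/6 (35.7% of all genes) and 7 in NOD (38.2%). All 10 acinar genes fell in both strains, with medians of -2.68 and -2.63. Of 11 macrophage genes 9 fell and 1 rose in C57BL/6 (median -1.24) and 7 fell and 2 rose in NOD (median -1.38), and of 14 DC genes 8 fell and 4 rose (median -0.62) and 9 fell and 1 rose (median -0.92).

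The size of these rises stands beside that of genes for which the cells have no template or which belong to other tissues. Of 12 genes chosen for lacking a template in females (the Y-linked Kdm5d, Eif2s3y and Uty) or for belonging to photoreceptors, egg coat or sperm, 11 were called higher in culture in C57BL/6 with a median of 0.60, and 9 in NOD with a median of 0.49. The medians of the 10 markers were 0.51 and 0.47, and those of all genes were 0.17 and 0.16. The 12 genes were not all dim: at steady state the sperm gene Prm1 had 8.98 in C57BL/6 and 9.34 in NOD, and 6 and 5 of the 12 lay below the lower quartile on every array. The lower quartile of the arrays also rose, from between 6.03 and 6.19 at steady state to between 6.19 and 6.35 in PBS culture. When each array was centred on the mean of those 12 genes, 3 markers were called in C57BL/6, with Hdc higher (3.70), Cpa3 lower (-1.10) and Mcpt8 lower (-0.33), and 3 in NOD, with Hdc (4.01) and Ms4a2 (0.74) higher and Kit lower (-0.88). On that centring 68.7% of all genes were called in C57BL/6 (9.74% higher, 58.9% lower) and 63.7% in NOD (12.0% and 51.7%). The changes below are on the RMA scale.

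The granule proteases moved little in culture next to Hdc and the acinar genes. In C57BL/6 the difference was 0.11 ± 0.34 for Cma1 (adjusted p = 0.796) and 0.02 ± 0.43 for Mcpt4 (adjusted p = 0.975), and centring on the 12 genes turned them to -0.47 and -0.56, neither of which passed. With replicate number as a block, Cma1 turned to a fall in C57BL/6 that passed (adjusted p = 0.0897). In NOD Cma1 differed by 0.26 ± 0.17 and did not pass, and Mcpt4 rose by 0.31 ± 0.14 (adjusted p = 0.0723), turning to -0.22 and -0.17 on the other centring. Cpa3 fell by 0.52 in C57BL/6 (SE 0.25, adjusted p = 0.0841) and rose by 0.57 ± 0.14 in NOD (adjusted p = 0.00403), from 5.32 to 5.63 at steady state to 5.77 to 6.18 in culture, where it lay below the lower quartile of all 4 arrays. Tpsb2 rose by 0.53 ± 0.25 in C57BL/6 (adjusted p = 0.0759) and by 0.24 ± 0.11 in NOD (adjusted p = 0.0782), which turned to -0.046 and -0.25 on the other centring. The calls of Tpsb2, of Cpa3 in C57BL/6 and of Mcpt4 in NOD each ended when some single arrays were left out. They also ended with the replicate block (adjusted p = 0.135 and 0.225 for Tpsb2 in C57BL/6 and NOD, 0.196 for Cpa3 and 0.125 for Mcpt4). The Cpa3 call in NOD stayed (adjusted p = 0.00577).

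Kit was called in opposite directions in the strains on its brighter probe set. It rose in C57BL/6, from 7.26, 7.34, 6.94 and 7.44 to 8.08, 8.31, 7.94 and 7.79 (0.78 ± 0.14, adjusted p = 0.00048), and its other probe set rose by 1.16 ± 0.12. It fell by 0.39 in NOD, from 7.34, 6.77 and 7.23 to 7.03, 6.64, 6.45 and 6.76 (SE 0.17, adjusted p = 0.0673), while its dimmer probe set, at 0.23 ± 0.15, did not pass. The C57BL/6 groups did not overlap, and the NOD groups did. The NOD call ended without steady-state replicate 1 or 6 or PBS replicate 2 or 3 (adjusted p up to 0.243). It also ended with the replicate block (adjusted p = 0.515), while the C57BL/6 call stayed (adjusted p = 0.00506). Centred on the 12 genes, the C57BL/6 difference was 0.21 (adjusted p = 0.222) and the NOD difference -0.88 (adjusted p = 0.00242).

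Gata2, a transcription factor needed for mast cells and basophils, rose in both strains, by 0.71 ± 0.15 in C57BL/6 (adjusted p = 0.00118) and by 0.69 ± 0.16 in NOD (adjusted p = 0.00274), from 7.57 to 8.09 and 7.83 to 8.04 at steady state to 8.34 to 8.88 and 8.45 to 9.04 in culture. Its other probe set rose by 0.70 and 0.82. Fcer1a rose by 0.71 in C57BL/6 and 0.63 in NOD, Ms4a2 by 0.49 and 1.22 (0.59 and 0.27 on its dimmer probe set), and Mcpt8 by 0.25 and 0.37. On the other centring the Ms4a2 rise remained a call in NOD (0.74) and turned to -0.088 in C57BL/6, which did not pass. Those of Gata2 (0.13 and 0.21) and Fcer1a (0.13 and 0.14) were smaller and no longer called. Mcpt8 turned to -0.33 (called lower) and -0.12, and with the replicate block its change passed in neither strain (adjusted p = 0.786 and 0.263). Fcer1a stayed below the lower quartile in 3 of 4 C57BL/6 and all 4 NOD arrays of PBS culture, and Ms4a2 in all 8.

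Other mast cell and basophil genes went in both directions in culture. Of the 22 measured, 13 rose and 3 fell in C57BL/6, and 15 rose and 2 fell in NOD. Ltc4s, which makes leukotriene C4, fell in both strains (-2.97 in C57BL/6 and -3.62 in NOD). Enpp3, an ectoenzyme on mast cells and basophils, rose (1.93 and 1.30) and Hpgds fell (-1.84 and -0.94) in both as well. Osm (1.46 and 2.46) and the interleukin-3 receptor chain Il3ra (1.71 and 1.72) also rose in C57BL/6 and NOD. Of the 13 transcription factors 4 rose and 7 fell in C57BL/6 and 3 rose and 6 fell in NOD, with Lyl1 (-2.61 and -3.19) falling and Spi1, the myeloid factor PU.1, rising (1.50 and 1.03) in both. Cebpa fell in both too, from a mean of 11.46 to 9.46 in C57BL/6 and with a change of -1.65 in NOD, as did Stat5b (-1.33 and -1.23). Of the 14 signalling genes 6 rose and 6 fell in C57BL/6 and 7 rose and 4 fell in NOD, with Prkcb (-2.10 and -1.76) and Plcg1 (-1.09 and -1.22) falling and the adaptor gene Lat2 rising (1.26 and 1.64). Of the 5 ligands, Tslp fell (-4.72 and -3.79), and Il33 (3.34 and 3.87) and Il9 (0.54 and 0.63) rose. Of 7 eosinophil genes 5 rose and 2 fell in C57BL/6, and 1 rose and 2 fell in NOD. Alox15 (-4.17 and -3.13) and Siglecf (-2.68 and -2.20) fell in both strains.

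The test of whether the strains changed differently in culture called 3 markers, 2 with the higher change in NOD and 1 with the lower, against 7.81% of all genes (4.91% and 2.89%). The change was higher in C57BL/6 for Kit (NOD minus C57BL/6 change -1.18, adjusted p = 0.0056, and -0.94 on the other probe set) and higher in NOD for Ms4a2 (0.74, adjusted p = 0.00502) and Cpa3 (1.09, adjusted p = 0.0648). The dimmer Ms4a2 probe set had the other sign and did not pass (-0.33, adjusted p = 0.447). The Cpa3 call ended without any 1 of 7 of the 15 arrays (C57BL/6 steady-state replicate 5 or 6, NOD steady-state replicate 1 or 4, C57BL/6 PBS replicate 4, NOD PBS replicate 1 or 2, adjusted p up to 0.153). Cma1, Mcpt4 and Hdc were not called. With replicate number as a block no marker was called, against 1.68% of all genes. The blocked adjusted p was 0.256 for Kit, 0.209 for Ms4a2 and 0.11 for Cpa3. This test and the strain and culture comparisons share arrays, so their values are not independent of each other.

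LPS changed few of the markers beyond PBS culture. In NOD, Hdc had 11.37, 11.34, 11.44 and 11.10 with PBS and 11.88, 12.00, 12.09 and 12.05 with LPS, without overlap, a rise of 0.70 ± 0.11 (adjusted p = 0.0083). The other Hdc probe set rose by 0.63 ± 0.17, with overlap (adjusted p = 0.0827). Hdc was the 1 marker called, against 4.40% of all genes (1.93% higher, and 4.07% wholly above). In C57BL/6 Hdc had 11.03, 11.16, 10.56 and 11.13 with PBS and 11.65, 11.25 and 11.62 with LPS, also without overlap (0.54 ± 0.18, adjusted p = 0.272), which did not pass. None of the 10 markers was called in C57BL/6 by limma, against 1.81% of all genes (6.05% wholly higher), and 1 had an unadjusted p under 0.05. The test of a different LPS response between the strains called none of the 10 markers, against 0.0220% of all genes, and none had an unadjusted p under 0.05. Kit differed by 0.31 ± 0.15 in NOD and 0.40 ± 0.18 in C57BL/6.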

How the data were processed

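RNA was amplified (Ovation Pico WTA v2) and hybridised on Affymetrix mouse genome arrays. The authors normalised the scans with RMA in BRB-ArrayTools, and the deposited values are log2 expression per probe set on 22 arrays. Of 45101 probe sets, 64 controls were left out. Genes were named through GEO's platform annotation (34945 probe sets had 1 gene, 932 several, 9160 none). Each comparison was fitted in limma 3.58.1 (R 4.3.3) on its own groups, without a block, with Benjamini-Hochberg adjustment over 45037 probe sets and a call at 0.1, after the study's false discovery rate. Its multivariate permutation test was not run here. All 10 members were named, and of other lists up to 3 called genes per comparison with the largest change. Members and lists were chosen with earlier results of these data known.

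Same-numbered arrays deviated together between the strains and between LPS and PBS (every r 0.109 to 0.487), so for these comparisons the blocked values are given where they change a call. Culture and steady state shared 2 numbers per strain with r of -0.0328 to 0.277 and were not taken as pairs. That range overlaps the one above, so r does not decide the pairing. The study divided its sorted cells between direct lysis and culture, so some of these arrays may share a sort. Each sample was a pool, but the labels do not say which arrays came from the same pool, so p-values measure the spread between arrays, whose number limits the precision. Alternatives were another threshold, a filter on dim probe sets, all arrays in 1 fit, median centring, another spread model, array weights (3 fits stopped before converging), the block, gene means, each array left out and, chosen after seeing the data, centring on 12 genes. In simulated data 200 of 45037 probe sets were changed. At steady state limma recovered 86.6% of those of log2 size 1 and 32.8% of size 0.5, and in PBS culture between the strains 76.1% and 8.96%. A larger share was called in the data, which moves the adjusted p, so these recoveries need not hold there. Strain variants under the probes were not examined.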

Additional observations from a re-analysis of the deposited data

Results flagged for a closer look

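Gata2 in replicate 2 of NOD PBS culture, at 9.04, stood apart from the other 3 arrays of its group, at 8.45 to 8.50. It was the 1 such array among 60 groups of 4 arrays checked over the 15 probe sets, and chance gives about 1 in 20. The change from steady state to PBS culture differed between the strains, by the test of that difference, for Kit (NOD minus C57BL/6 -1.18 on its brighter and -0.94 on its other probe set, adjusted p = 0.0056 and 0.00877), Ms4a2 (0.74, adjusted p = 0.00502, on a probe set below the lower quartile of these arrays) and Cpa3 (1.09, adjusted p = 0.0648). The dimmer Ms4a2 probe set, at -0.33, did not pass. With replicate number as a block, none of these differences passed.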

How the results depend on the processing

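The steady-state count of 3 called markers was 1 without the dimmer probe sets. Of the 10 markers 4 passed that filter (Cma1, Hdc, Gata2 and Tpsb2). The others were not tested under it, in this and the comparisons below, so their calls could not stay. The count was 5 with array weights, which called 43.8% of all genes. It was 6 when centred on the 12 genes, which called 30.7%, and 3 to 4 with 1 array left out. Between the strains in PBS culture (2 called) it was 5 with all arrays in 1 fit, with array weights, with the replicate block and when centred on the 12 genes (8.53% to 15.7% of all genes), and 2 to 6 with 1 array left out. In LPS culture (4 called) it was 2 at an adjusted p under 0.05, 2 without dim probe sets, and 2 to 6 with 1 array left out, with 2 without C57BL/6 replicate 3, NOD replicate 3 or NOD replicate 4. For LPS against PBS in C57BL/6 (0 called) gene means gave 1. For culture in NOD (9 called) it was 3 without dim probe sets, 5 with the replicate block (56.9% of all genes), 3 when centred on the 12 genes, and 6 to 8 with 1 array left out. For culture in C57BL/6 (8 called) it was 4 at 0.05, 3 without dim probe sets, 3 when centred on the 12 genes, and 5 to 8 with 1 array left out. Of the 3 markers whose culture change differed between the strains, none was tested without dim probe sets. With the replicate block their count became 0 (1.68% of all genes), where adjusted p was 0.256 for Kit, 0.209 for Ms4a2 and 0.11 for Cpa3. In the steady-state strain comparison the block left 3 called, and it changed no count by over 1.5 times elsewhere.

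Among the tabulated differences, directions turned in the culture comparisons. In C57BL/6 the replicate block gave -0.41 for Cma1, which then passed (adjusted p = 0.0897), and -0.19 for Mcpt4, centring on the 12 genes gave Cma1 -0.47, Mcpt4 -0.56, Ms4a2 -0.088, Mcpt8 -0.33 and Tpsb2 -0.046, and leaving out 1 array gave -0.19 to 0.52 for Cma1 and -0.46 to 0.39 for Mcpt4. In NOD that centring gave Cma1 -0.22, Mcpt4 -0.17, Mcpt8 -0.12 and Tpsb2 -0.25. The cause was not tested. Single calls that ended when 1 array was left out were, for culture in C57BL/6, Cpa3 (steady replicate 5 or 6, PBS replicate 1 or 4, adjusted p up to 0.252), Tpsb2 (steady 4 or 6, PBS 1, 2 or 3, up to 0.199), Fcer1a (steady 1 or 4, PBS 2 or 3, up to 0.14) and Mcpt8 (7 of 8 arrays, all but PBS 4, up to 0.204), for culture in NOD, Kit (steady 1 or 6, PBS 2 or 3, up to 0.243), Mcpt4 (steady 1 or 4, PBS 1 or 3, up to 0.212) and Tpsb2 (any of 7 arrays, up to 0.183), and, for the difference between strains in culture change, Cpa3 (7 of 15 arrays, up to 0.153). A further 50 differences that did not pass had 919 refits, of which 69 had the other sign and 6 passed. Signal over background limits the differences of Fcer1a and Ms4a2, below the lower quartile of most arrays, and of Mcpt4 and Cpa3 in NOD at steady state. It also limits those of the NOD cultures. There Cpa3 was below the lower quartile on all 4 PBS and all 4 LPS arrays, and Mcpt4 on 3 of 4 PBS and 2 of 4 LPS arrays.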
